A study of Mus musculus with 12 samples.

Results

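The 33 genes described here mark the 2 cell layers of blood vessels in mouse muscle. They were taken by symbol from a list of known vessel markers and each was found once among the 31057 genes of the table. Of these, 20 are endothelial genes and 13 are mural genes, 6 of smooth muscle and 7 of pericytes. All 33 passed the filter on low counts that left 17201 genes for testing.

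The samples were tibialis anterior muscles of C57BL/6 mice aged 7 weeks, in 4 groups of 3 libraries. In WT mice both genes of the histone variant H2A.Z, H2A-Z.1 and H2A-Z.2, were floxed and no Cre was carried, and in dKO mice both were deleted by HSA Cre, which the human skeletal actin promoter drives in muscle fibres and not in vessel cells. In the left leg the sciatic nerve had been cut 48 h before sampling (denervated), and the unoperated opposite leg was the innervated control, so that nerve loss cannot be told apart from surgery or side. Values are CPM, read counts scaled to a common library size, from whole muscle, in which fewer cells of a type and less RNA per cell cannot be told apart.

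Endothelial cells line the vessel and respond to vascular endothelial growth factors (VEGF) made by the tissue, through the receptors KDR, FLT1 and FLT4, and to angiopoietins through TEK. Mural cells wrap the lining. Smooth muscle cells contract around arterioles through actin, myosin and their regulators, and pericytes sit on capillaries, held there by PDGFB from the endothelium acting on PDGFRB.

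Library totals were 55668606 to 87753152 counts. H2afv, which encodes H2A-Z.2, was lower in dKO than in WT in innervated legs (5.67 ± 0.53 against 22.1 ± 3.17 CPM, SD, n = 3) and in denervated legs (5.0 ± 0.35 against 20.7 ± 1.56 CPM). H2afz, which encodes H2A-Z.1, was at 8.39 ± 1.6 against 13.5 ± 2.38 CPM in innervated legs, with an adjusted p of 0.175 in edgeR's quasi-likelihood test. In denervated legs H2afz was at 6.56 ± 1.11 against 9.72 ± 1.92 CPM (adjusted p = 0.287 in the same test). Deviations from the group means fell most with transcript GC content in dKO innervated replicate 1 and WT denervated replicate 2 (correlations across genes of −0.381 and −0.523). The other 10 libraries ran from −0.202 to 0.348, the highest in WT denervated replicate 1. Deviations within a group balance out, so these correlations do not tell which library of a group is unusual.

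The promoters of 21 of the 33 genes could be matched in RefSeq (GRCm38.p6), and 4 are printed because they belong to genes whose changes anchor the results below, an endothelial gene that fell and 1 that was not called, and a smooth muscle and a pericyte gene that fell. They were chosen after their values and motifs were seen, and Acta2, picked at first, was left out once it showed no CArG box. Each is the 250 bases before the RefSeq start of the gene, 5′ to 3′ on the strand of the gene. The gene annotation used for positions below starts Myl9 at 156775420 and Kdr at 75978458, so these 2 stretches reach into the annotated gene. Capitals mark GGAA or its reverse complement TTCC, the core bound by ETS factors such as ERG and ETS1, in Kdr, Tek and Rgs5, and the CArG box (CC, 6 A or T, GG), bound by serum response factor, in Myl9.
Kdr (chr5:75978456-75978705, minus strand): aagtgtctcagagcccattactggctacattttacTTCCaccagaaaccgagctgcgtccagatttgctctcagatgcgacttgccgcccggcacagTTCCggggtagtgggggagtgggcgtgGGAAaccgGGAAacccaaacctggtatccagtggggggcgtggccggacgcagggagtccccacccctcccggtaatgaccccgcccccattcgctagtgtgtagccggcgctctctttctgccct
Tek (chr4:94739039-94739288, plus strand): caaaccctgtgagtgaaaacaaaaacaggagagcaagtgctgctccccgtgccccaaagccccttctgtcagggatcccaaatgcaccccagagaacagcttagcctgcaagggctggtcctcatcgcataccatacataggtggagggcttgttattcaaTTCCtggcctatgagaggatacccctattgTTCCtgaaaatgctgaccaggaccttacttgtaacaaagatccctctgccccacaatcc
Myl9 (chr2:156775214-156775463, plus strand): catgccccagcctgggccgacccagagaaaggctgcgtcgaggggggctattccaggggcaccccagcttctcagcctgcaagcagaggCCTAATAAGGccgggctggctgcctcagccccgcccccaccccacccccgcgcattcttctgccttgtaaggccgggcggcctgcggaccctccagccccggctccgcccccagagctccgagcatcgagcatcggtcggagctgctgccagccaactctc
Rgs5 (chr1:169655251-169655500, plus strand): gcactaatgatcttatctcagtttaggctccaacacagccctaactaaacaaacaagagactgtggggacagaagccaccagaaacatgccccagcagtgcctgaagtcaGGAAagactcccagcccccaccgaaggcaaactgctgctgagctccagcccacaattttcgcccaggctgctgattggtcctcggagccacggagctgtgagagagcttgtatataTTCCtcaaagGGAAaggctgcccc

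A matched member was counted as holding a motif if any of its promoters did, on either strand. Egfl7 and Erg have 3 promoters each, and the first of Erg holds no GGAA or TTCC. GGAA or TTCC was found in 10 of 11 endothelial and 8 of 10 mural genes, against 94.2% of 27025 genes with a promoter. These shares are near that of all genes, and Kdr, which fell, and Tek, which was not called, both hold it. A CArG box was found in 1 of 10 mural genes (Myl9) and 0 of 11 endothelial ones, against 1.62% of all genes. ACAAT or ATTGT, the core bound by SOX factors, was found in 4 of 11 and 4 of 10, against 30.9%. Matches of different motifs may share bases and were counted separately, and a match is a description of the sequence only.

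Most of these genes were lower in denervated WT muscle, and the median change was larger for the mural than for the endothelial genes. Of 20 endothelial genes, 14 were lower in denervated than in innervated WT legs and 0 higher (edgeR's quasi-likelihood test, Benjamini-Hochberg adjusted p below 0.05 over all tested genes), where 21% of all tested genes were lower and 23.1% higher. Of 13 mural genes, 10 were lower and 0 higher. The median log2 ratio of denervated over innervated was −0.40 for the endothelial genes, −0.79 for the 6 smooth muscle genes and −0.52 for the 7 pericyte genes, beside −0.00 over all tested genes. In dKO muscle 8 endothelial and 9 mural genes were lower and 0 higher, where 20.2% of all tested genes were lower and 21.9% higher, with medians of −0.25, −0.82 and −0.28. With replicate number as a block, 14 endothelial and 12 mural genes were lower in WT, and in dKO 10 endothelial genes were lower, 1 was higher (Cldn5) and 10 mural genes were lower. The 8 and 9 genes were all among those that fell in WT. All 3 denervated libraries were below all 3 innervated ones for 15 endothelial and 11 mural genes in WT, beside 25.1% of all tested genes, and for 9 and 11 in dKO, beside 26%. The 2 classes were not tested against each other.

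**Figure D1:**
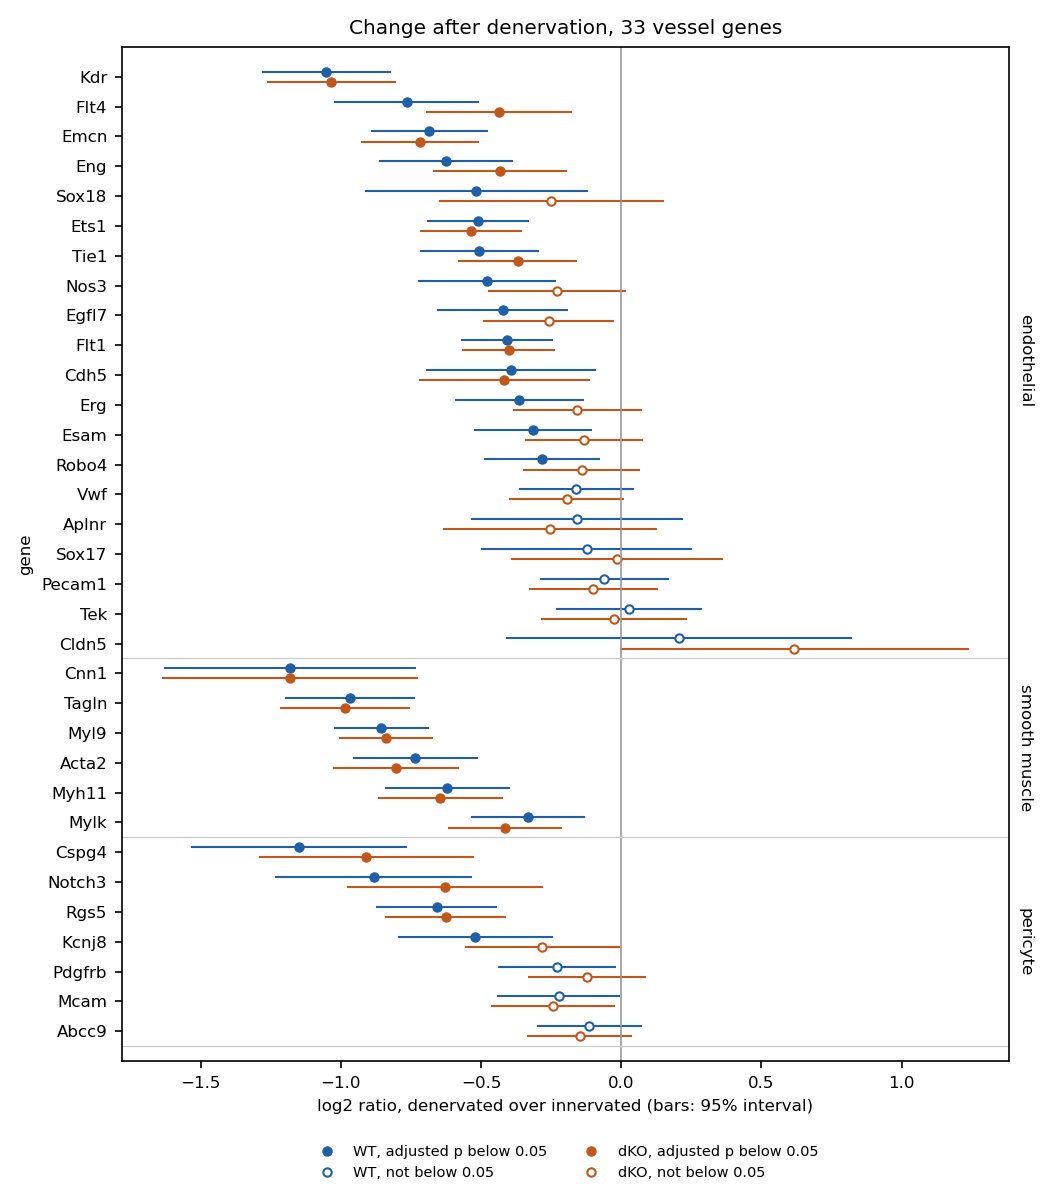
Log2 ratio of denervated over innervated legs for each of the 33 genes in WT (blue) and dKO (orange), with bars for the 95% interval and filled points for an adjusted p below 0.05. The filled points all lie left of 0, with Kdr, Cnn1, Tagln and Cspg4 farthest, and Pecam1, Tek and Cldn5 lie near or right of 0.

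Among the VEGF receptors, Kdr (VEGFR2, the main signalling receptor of VEGF-A) changed most. Its level in WT was 137, 140 and 115 CPM in innervated legs and 61.7, 72 and 55.1 CPM in denervated legs. In dKO it was 128, 113 and 132 CPM against 62.7, 59.9 and 59.5 CPM. Every denervated leg was below every innervated one in both genotypes, and Kdr fell by 1.05 on the log2 scale in WT (SE 0.11, adjusted p = 5.18e-06) and by 1.03 in dKO (SE 0.11, adjusted p = 6.1e-06). Flt1 (VEGFR1, which binds VEGF-A with little signalling of its own) fell by 0.41 (SE 0.08) and by 0.40 (SE 0.08). Flt4 (VEGFR3, the receptor of VEGF-C) fell by 0.77 (SE 0.12) and by 0.44 (SE 0.12), and its calls in dKO were lost without dKO innervated replicate 3 or either of dKO denervated replicates 1 and 3. The Kdr gene lies at chr5:75932827-75978458 and the Flt1 gene at chr5:147561604-147726011, both on the minus strand (GENCODE M21, GRCm38, another build than the mm9 of the counts).

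The Tie receptors were not tested against each other. Tie1, an orphan receptor that modulates TEK, fell by 0.51 in WT (SE 0.10) and by 0.37 in dKO (SE 0.10). Tek, the angiopoietin receptor Tie2, was at 50.9, 54.9 and 44.1 CPM in innervated and 46.8, 60.5 and 45.4 CPM in denervated WT legs. Those ranges overlap, and the log2 ratio was 0.03 (95% interval −0.23 to 0.29) in WT and −0.03 (−0.29 to 0.24) in dKO.

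Of the genes of the cell surface and of junctions, Emcn (endomucin, a sialomucin of capillary and venous endothelium) moved most, from 20.8, 19.5 and 18.4 to 11.4, 13.8 and 11.3 CPM in WT and from 18.5, 21 and 18 to 11.3, 11.8 and 11.8 CPM in dKO. The groups did not overlap, and the gene fell by 0.68 (SE 0.10) and by 0.72 (SE 0.10). Eng (endoglin, a co-receptor of BMP9) fell by 0.62 (SE 0.11) and by 0.43 (SE 0.11). Cdh5 (VE-cadherin, the adherens junction protein) fell by 0.39 (SE 0.14) and by 0.42 (SE 0.14), with adjusted p of 0.0371 and 0.0296. The call was lost in WT without WT innervated replicate 2 or 3 or WT denervated replicate 1 or 3 (adjusted p up to 0.155), and in dKO without dKO innervated replicate 1 or 3 or any dKO denervated library (up to 0.132).

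Esam and Robo4, an adhesion molecule and a guidance receptor of the endothelium, fell in WT by 0.31 (SE 0.10) and by 0.28 (SE 0.10), and had log2 ratios of −0.13 and −0.14 in dKO (adjusted p 0.298 and 0.267). The WT calls were lost without WT innervated replicate 2 or 3 or WT denervated replicate 1, with adjusted p up to 0.0733 for Esam and 0.133 for Robo4, and that of Robo4 also without WT denervated replicate 3. Pecam1 (CD31, an adhesion molecule of all endothelium) was at 118, 131 and 116 CPM in innervated and 103, 133 and 113 CPM in denervated WT legs. Its groups overlapped in both genotypes, and the log2 ratio was −0.06 (95% interval −0.29 to 0.17) in WT and −0.10 (−0.33 to 0.13) in dKO.

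Cldn5 (claudin-5, of the tight junction) had the widest spread of the 33 genes, with 9.9, 25.1 and 16.2 CPM in innervated and 14.1, 20.2 and 24.6 CPM in denervated WT legs, and 13.5, 11.1 and 13.7 against 25, 15.6 and 18.2 CPM in dKO. The dKO groups did not overlap, with the denervated legs higher, where 26.6% of all tested genes were higher without overlap. The log2 ratio was 0.21 (SE 0.29) in WT and 0.62 (SE 0.29, adjusted p = 0.104) in dKO. With replicate number as a block, Cldn5 was called higher in dKO, by 0.60 (adjusted p = 0.0119).

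Among secreted and signalling genes, Egfl7, which encodes a secreted endothelial factor, fell by 0.42 in WT (SE 0.11), and had a log2 ratio of −0.26 in dKO (adjusted p = 0.0719, and 0.0181 with the replicate block). Nos3 (endothelial nitric oxide synthase) fell by 0.48 in WT (SE 0.11), with −0.23 in dKO (adjusted p = 0.124). Vwf (von Willebrand factor) had ratios of −0.16 and −0.20 and Aplnr (the apelin receptor) −0.16 and −0.25. None of these 4 values was called, although Aplnr in dKO was with the replicate block (−0.27, adjusted p = 0.0489). Without dKO innervated replicate 1, whose deviations fell with GC content, Egfl7, Nos3 and Vwf were called lower in dKO (−0.35, −0.35 and −0.27, adjusted p = 0.0235, 0.0202 and 0.0461).

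Of the transcription factors, Ets1 fell in both genotypes, by 0.51 (SE 0.08) and by 0.53 (SE 0.08). Erg, an ETS factor that maintains endothelial identity, fell in WT by 0.36 (SE 0.11) and had −0.16 in dKO (adjusted p = 0.266). Its WT call was lost without WT innervated replicate 2 (adjusted p = 0.0763). Sox18 fell in WT by 0.52 (SE 0.18, adjusted p = 0.0356), a call lost in 6 of 13 alternatives, and had −0.25 in dKO. Sox17, an arterial factor, had −0.12 and −0.01. Erg and Sox18 were thus called in WT alone, while their difference between genotypes was not (adjusted p = 1 for each).

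**Figure D2:**
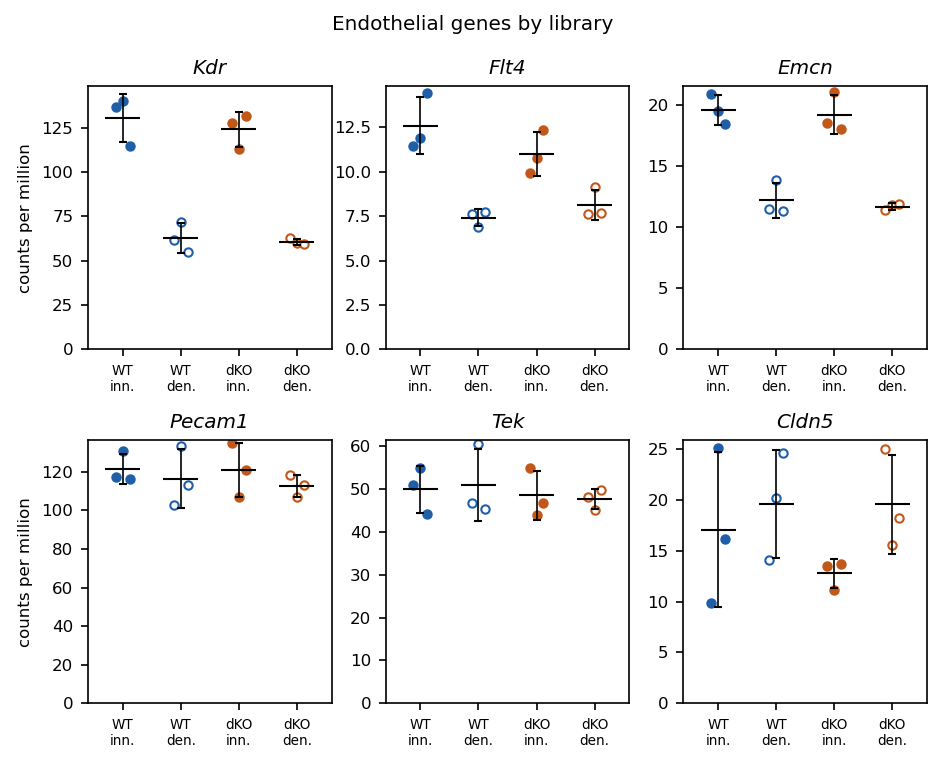
CPM of 6 endothelial genes in each library (points), with the mean and SD of 3 libraries, in the 4 groups; filled points are innervated and open points denervated legs. Kdr, Flt4 and Emcn show denervated libraries below all innervated ones of the same genotype, while Pecam1 and Tek overlap and Cldn5 spreads widely.

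All 6 smooth muscle genes fell in both genotypes, and no denervated library reached an innervated one of its genotype. Myl9 (the regulatory myosin light chain) was at 49.4, 44.9 and 44.2 CPM in innervated and 27.2, 24.9 and 24.4 CPM in denervated WT legs, and at 43, 40.3 and 45.7 against 23.8, 25.2 and 23.1 CPM in dKO. It fell by 0.86 (SE 0.08, adjusted p = 2.23e-06) and by 0.84 (SE 0.08). Cnn1 (calponin, an actin-binding protein) fell by 1.18 in each genotype (SE 0.21), from a low level of 4.17, 2.62 and 2.58 CPM to 1.27, 1.45 and 1.42 CPM in WT. Tagln (SM22, an actin-binding protein) fell by 0.97 (SE 0.11) and by 0.98 (SE 0.11).

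Acta2 (smooth muscle actin) was at 74, 64 and 57.5 CPM in innervated and 39.6, 39.9 and 38 CPM in denervated WT legs, and fell by 0.73 (SE 0.10) in WT and by 0.80 (SE 0.10) in dKO. Its relative Acta1, the actin of muscle fibres, was at 26388 CPM in WT innervated legs and fell by 0.60 in WT (adjusted p = 0.022), with a log2 ratio of −0.30 in dKO (adjusted p = 0.238). Whether reads of Acta1 enter the Acta2 count was not tested. Myh11 (smooth muscle myosin) fell by 0.62 (SE 0.10) and by 0.65 (SE 0.10), and Mylk (myosin light chain kinase) by 0.33 (SE 0.09) and by 0.42 (SE 0.09), a call lost in WT without WT innervated replicate 2 (adjusted p = 0.0513).

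The pericyte genes were split. Cspg4 (the proteoglycan NG2) was at 53.2, 47.9 and 58.9 CPM in innervated and 27.1, 18.3 and 26.8 CPM in denervated WT legs, and at 33.4, 42.1 and 55.9 against 21.5, 24.8 and 23.6 CPM in dKO, and fell by 1.15 (SE 0.18) and by 0.91 (SE 0.18). Notch3 (the Notch receptor of mural cells) fell by 0.88 (SE 0.16) and by 0.63 (SE 0.16). Rgs5 (a regulator of G protein signalling) was at 598, 621 and 562 CPM in innervated and 379, 425 and 324 CPM in denervated WT legs, and fell by 0.66 (SE 0.10) and by 0.63 (SE 0.10). In these 3 genes no denervated library reached an innervated one of its genotype.

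The channel genes Kcnj8 and Abcc9, whose products form the ATP-sensitive potassium channel of mural cells, lie next to each other at chr6:142564837-142571614 and chr6:142587862-142702315 on the minus strand. Kcnj8 fell by 0.52 in WT (SE 0.13), with −0.28 in dKO (adjusted p = 0.096), and was called lower there without dKO innervated replicate 1 (−0.39, adjusted p = 0.0293). Abcc9, which skeletal muscle fibres also express, had −0.11 (95% interval −0.30 to 0.07) and −0.15 (−0.34 to 0.04). Pdgfrb (the PDGF-B receptor) had −0.23 in WT (adjusted p = 0.0726) and −0.12 in dKO, and Mcam (CD146) had −0.22 (adjusted p = 0.0943) and −0.24 (adjusted p = 0.072). With the replicate block Pdgfrb was called lower in WT (adjusted p = 0.0241) and Mcam in both genotypes (adjusted p = 0.0214 and 0.0155). Mcam was also called in WT without WT innervated replicate 1 or WT denervated replicate 2 (adjusted p = 0.0493 and 0.0365).

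**Figure D3:**
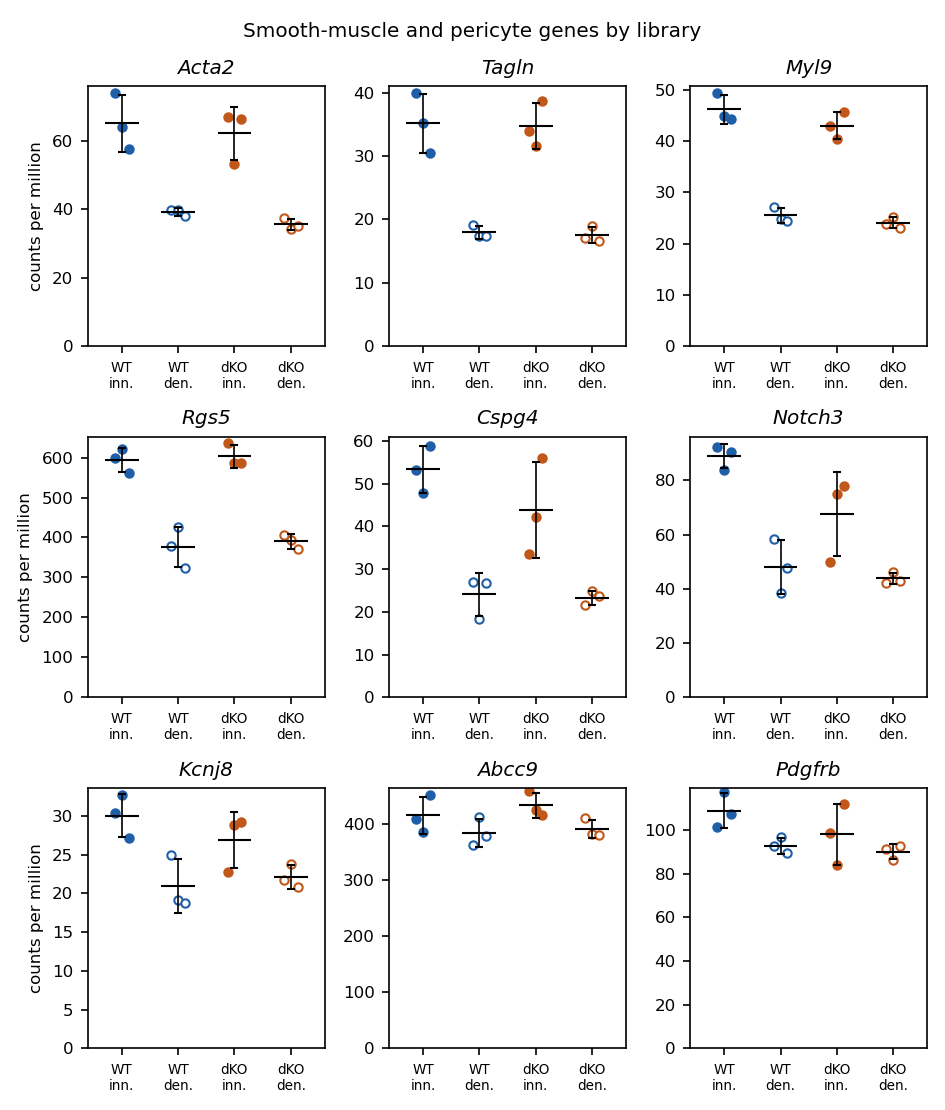
CPM of 9 mural genes in each library (points), with the mean and SD of 3 libraries, in the 4 groups; filled points are innervated and open points denervated legs. Acta2, Tagln, Myl9, Rgs5, Cspg4 and Notch3 are lower in every denervated library than in every innervated one of the same genotype, while Abcc9 and Pdgfrb were not called.

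Ratios of counts within a library are free of scaling between libraries. From 9 ratios, chosen after the fold changes were seen and given without a test, Kdr over Pecam1 was 1.07 ± 0.087 (SD, n = 3) in innervated and 0.542 ± 0.057 in denervated WT legs, and 1.03 ± 0.075 against 0.538 ± 0.019 in dKO. Cspg4 over Pdgfrb was 0.492 ± 0.075 against 0.26 ± 0.062 in WT and 0.447 ± 0.093 against 0.259 ± 0.026 in dKO. Both set a gene that fell strongly over one that was not called. A ratio moves by the difference between the changes of its genes, so closer changes give smaller moves by construction. Tagln over Acta2 was 0.54 ± 0.009 against 0.46 ± 0.024 in WT and 0.562 ± 0.047 against 0.495 ± 0.05 in dKO. Kcnj8 over Abcc9 was 0.073 ± 0.0123 against 0.0551 ± 0.0123 in WT and 0.0626 ± 0.0114 against 0.0568 ± 0.00496 in dKO.

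In leg pairs of the same number, 26 of the 33 genes were lower in the denervated leg in all 3 pairs of both genotypes, beside 26.5% of all tested genes. The 7 others were Pecam1, Tek, Cldn5, Sox17, Aplnr, Pdgfrb and Abcc9.

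Reads from a gene and a partner on the other strand cannot be told apart if strand was not used in counting, and that setting is not given in the sources used here. Exons of 9 members overlap such a partner in the annotation, namely Eng, Egfl7, Nos3, Sox17, Tagln, Mylk, Notch3, Mcam and Abcc9. Egfl7 also overlaps Gm20532 and Mir126a on its own strand, where strand does not separate the reads. The near-identical match found for Tagln, Gm48529, overlaps its exons on the other strand, and so does not show a copy elsewhere. With the strand setting unknown, the count of Tagln is uncertain. Pcsk7, another partner of Tagln, was at 21.3 CPM in innervated and 20.5 CPM in denervated WT legs (log2 ratio −0.06). Fpgs, the partner of Eng, had a log2 ratio of 0.54 in WT, opposite in sign to that of Eng.

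Genotype changed none of the 33 genes at the threshold. Between dKO and WT innervated legs 0 of 33 were called by edgeR and 0 by DESeq2, where 0.459% of all tested genes were called. At an unadjusted p below 0.05 there were 6 of 33, beside 10.5% of all tested genes, namely Eng, Egfl7, Robo4, Nos3, Sox18 and Notch3. The log2 ratio of dKO over WT was negative for 31 of 33 genes, with a median of −0.17 for the endothelial and −0.13 for the mural genes, beside 0.01 over all tested genes. Over the alternatives these medians ran from −0.24 (without dKO innervated replicate 3) to −0.08 (without WT innervated replicate 2) and from −0.20 (without dKO innervated replicate 3) to −0.05 (without dKO innervated replicate 2). The lowest values were −0.49 for Sox18 (95% interval −0.88 to −0.09, adjusted p = 0.358) and −0.41 for Cldn5 (−1.04 to 0.21).

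Sox18 was at 7.92, 9.3 and 6.79 CPM in WT and 4.6, 6.64 and 5.9 CPM in dKO innervated legs, and Notch3 at 92.2, 83.8 and 90.3 against 49.9, 75.1 and 78.1 CPM. In both, dKO innervated replicate 1, whose deviations from the group mean fell with GC content, was the lowest. Without it the log2 ratio was −0.35 for Sox18 (from −0.49), −0.21 for Notch3 (from −0.39) and −0.17 for Nos3 (from −0.29). Their transcripts have a GC content of 60.9%, 59.6% and 58.2%. This library was also the lowest for Cspg4 (59.2% GC), at 33.4 against 42.1 and 55.9 CPM. It was not the lowest for Cldn5 (60.5% GC), at 13.5 against 11.1 and 13.7 CPM. The part of GC content in these values was not tested.

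In denervated legs 0 of 33 genes differed between genotypes by edgeR or DESeq2, where 0.36% of all tested genes were called, and 0 had an unadjusted p below 0.05, beside 9.78%. Median log2 ratios were −0.07 and −0.09. The difference between the denervation changes of dKO and WT was called for 0 of 33 genes, as it was for 0% of all tested genes, and 0 had an unadjusted p below 0.05, beside 2.17%. The largest, 0.41 for Cldn5 (95% interval −0.46 to 1.29) and 0.33 for Flt4 (−0.04 to 0.70), were not called, and Kdr differed by 0.02 (−0.30 to 0.34).

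**Figure D4:**
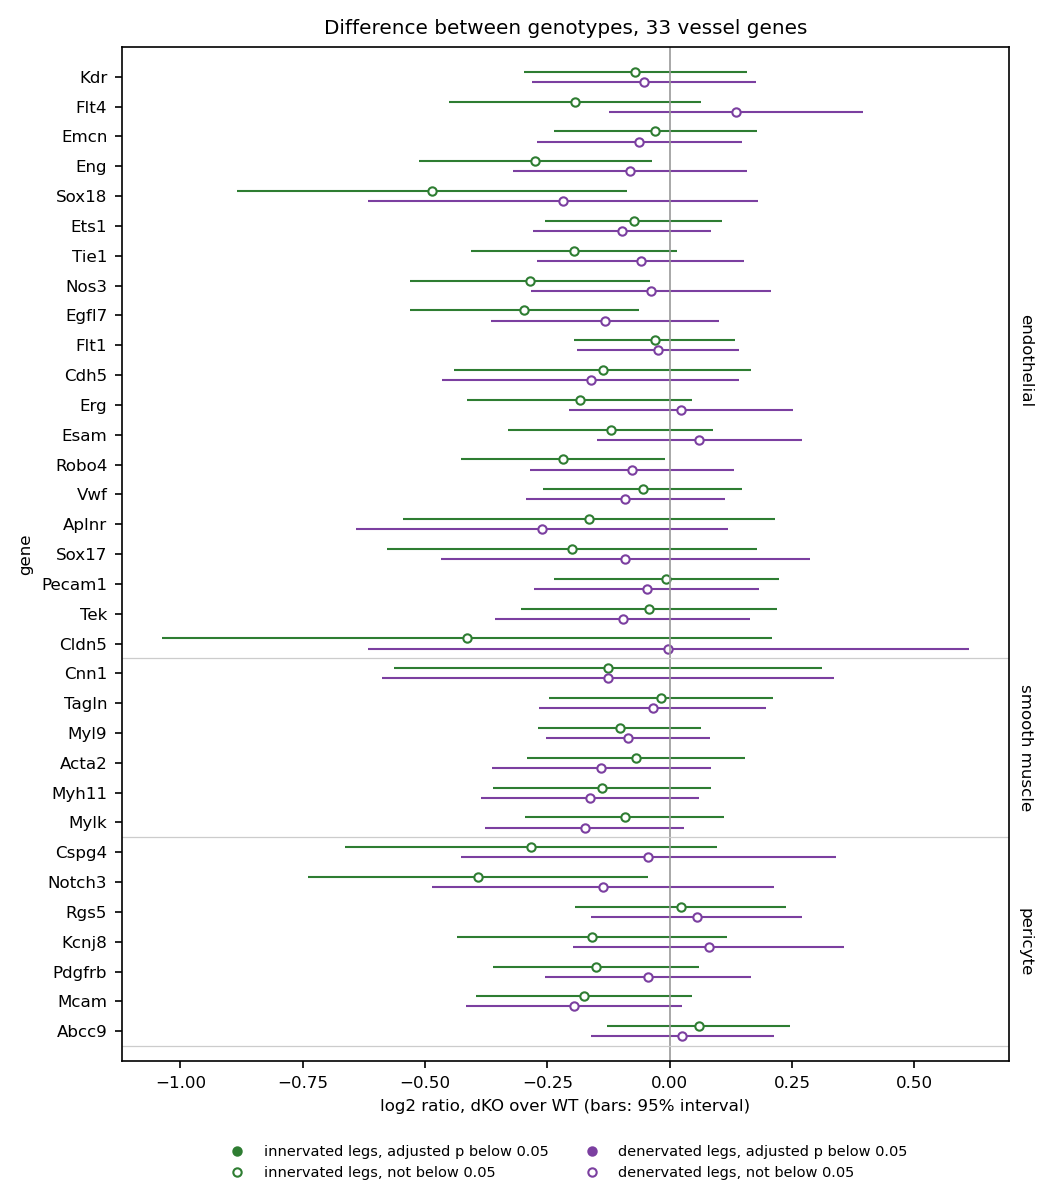
Log2 ratio of dKO over WT for the 33 genes in innervated (green) and denervated (purple) legs, with bars for the 95% interval; filled points would mark an adjusted p below 0.05. No point is filled, and most innervated values lie left of 0, with Sox18, Cldn5 and Notch3 farthest.

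Other genes of the same pathways were taken from lists written for this work. Of 18 further vascular receptors, 14 fell and 0 rose in WT, and 10 fell and 0 rose in dKO, where 21% and 20.2% of all tested genes fell. Those with the largest change in WT were Cxcr7, a CXCL12 receptor (−1.12), Notch4 (−0.80), Nrp1, a VEGF co-receptor (−0.76), and Unc5b (−0.54). Of 25 tested ligands 12 fell and 4 rose in WT, and 9 fell and 6 rose in dKO, so that the shares that rose were below or near those of all tested genes (23.1% and 21.9%).

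Vegfa, the ligand of Kdr, went from 283 ± 29.9 to 78.9 ± 29.1 CPM in WT (SD, n = 3), and fell by 1.84 (SE 0.21) in WT and by 1.54 (SE 0.21) in dKO. Angpt1, the ligand of Tek, fell by 1.17 (SE 0.14) and by 1.46 (SE 0.14). Dll1, a Notch ligand, rose by 1.94 (SE 0.30) and Thbs1, an inhibitor of angiogenesis, by 1.39 (SE 0.25) in WT. Pdgfb, named after its values were seen as the ligand of Pdgfrb, fell by 0.65 (SE 0.09) and by 0.50 (SE 0.09).

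**Figure D5:**
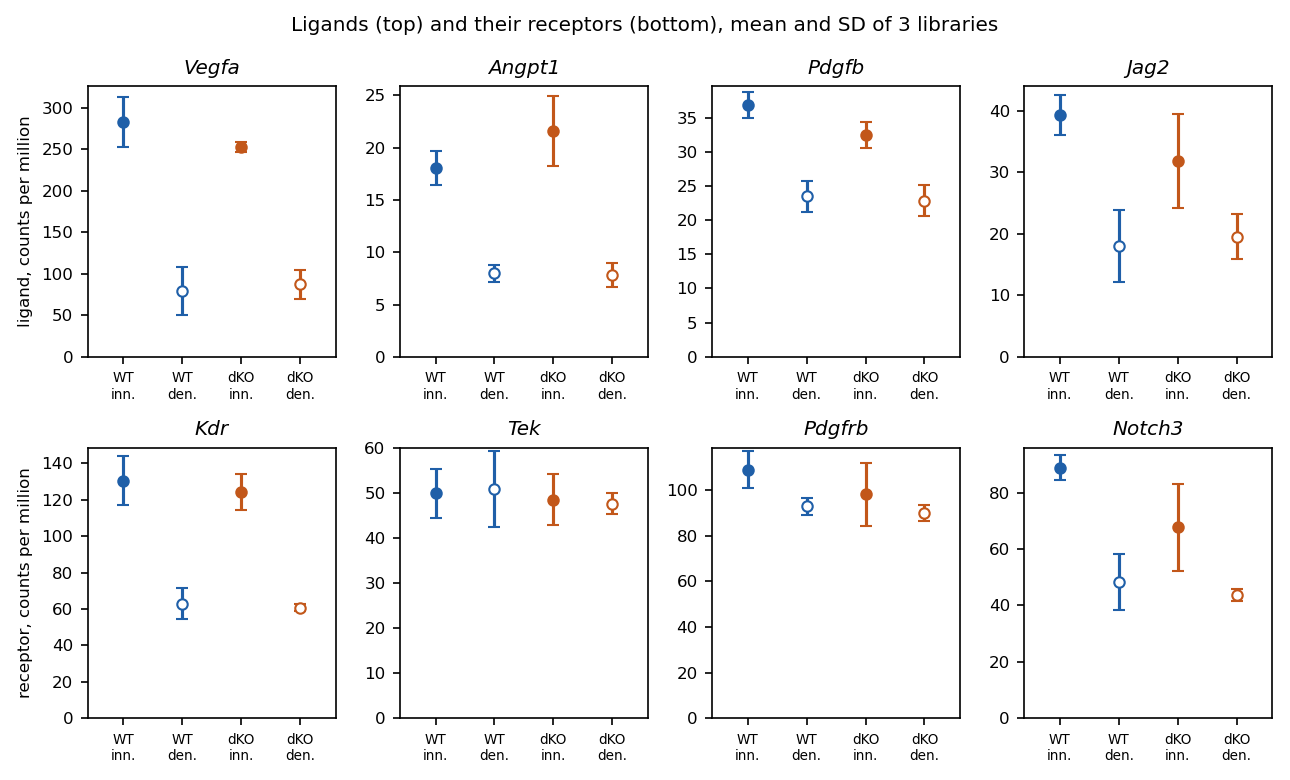
Mean CPM and SD of 3 libraries for 4 ligands (top) and 4 receptors that bind them or their family (bottom), in the 4 groups; the ligands were chosen for display after their values were seen. Vegfa and Kdr are both lower after denervation, Angpt1 is lower while its receptor Tek overlaps between groups.

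Of 20 tested transcription factors of the vessel, 7 fell and 1 rose in WT, and 3 fell and 1 rose in dKO. The share that fell in dKO was below the 20.2% of all tested genes. Epas1 (HIF-2alpha) fell by 1.08, Gata2 by 0.99 and Mkl1, a cofactor of serum response factor, by 2.22 in WT, while Hif1a rose by 0.60. Of 24 other endothelial genes 12 fell and 3 rose in WT, and 11 fell and 4 rose in dKO. Their WT log2 ratios ran from −1.17 to 3.06. Tmem100, a target of ALK1 signalling, was at 9.98 ± 0.88 and 83.2 ± 20.2 CPM (a rise of 3.06). Plvap, of the fenestral diaphragm, was lower by 0.86 on the log2 scale (−0.86), which was not the lowest ratio of the list. Of 20 other mural genes 15 fell and 1 rose in each genotype. Synpo2 (−2.74), Casq2 (−2.19) and Smtn (−1.42) changed most in WT, and these are also expressed by muscle fibres. Genotype called 0 genes of these lists in either leg.

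Markers of other cell types changed to differing degrees, and their part in the vessel values was not tested. Over all tested genes 21% fell and 23.1% rose in WT. In WT the summed level of 9 Schwann cell markers went from a range of 92.9 to 99.6 CPM to 36.6 to 42.4 CPM. Of these 9 markers, 7 fell and 1 rose. That of 10 fibroblast markers, of which 5 of 9 tested fell, went from 5166 to 7721 CPM to 2898 to 5011 CPM, and that of 12 fibre markers, of which 7 fell, from 285733 to 356873 CPM to 215980 to 223274 CPM. The sum of 13 macrophage markers, of which 2 rose and 1 fell, was 172 to 201 and 189 to 223 CPM, and these ranges overlap. In dKO 7 of 9 Schwann cell markers fell and 2 rose, and 4 of 9 tested fibroblast and 6 of 12 fibre markers fell. Of the 13 macrophage markers 1 rose and 1 fell in dKO. Of 7 neutrophil markers 2 of 5 tested rose in WT and 1 rose in dKO. Their sum went from 3.22 to 3.63 CPM to 14.3 to 24.5 CPM in WT, where log2 ratios ran from 0.05 to 6.95 (median 0.97). Ly6g had 0 counts in every WT library. Of 5 lymphatic markers 3 rose in WT, with a sum of 28.7 to 30.7 CPM and then 58 to 66.3 CPM. Their log2 ratios ran from −0.10 to 2.73 (median 0.30), so the sum does not describe each marker. In dKO 2 of them rose and 1 fell. Of 6 satellite cell markers 2 rose and 1 fell in WT, and 1 rose and 1 fell in dKO. Of the tested red blood cell, platelet and T cell markers 0 were called in either genotype.

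Levels between genes can be compared only per length. In WT innervated legs, per kb of annotated exon, Rgs5 was highest at 131 ± 6.5 CPM per kb (SD, n = 3), followed by Abcc9 at 49.6 ± 3.96 and Myl9 at 39.7 ± 2.42, and Cnn1 was lowest at 1.14 ± 0.33. Of 32 neighbours in this order, 23 had overlapping values. The order depends on the length used: on the authors' per-kb signal, whose lengths are shorter by up to 6.7 times, Rgs5 was also first and Cnn1 last, but Egfl7 came 2nd in place of 5th and Flt1 6th in place of 21st. The exon length scale was added after the authors' order had been seen. All 20 endothelial and 13 mural genes were above the floor of 3 counts in every library.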

How the data were processed

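RNA was measured in 12 mouse tibialis anterior libraries, grouped by the labels. Per the labels' protocols they were strand-specific total RNA libraries depleted of ribosomal RNA. The build mm9 and the tools HTSeq 0.6.1, TopHat2 2.0.14, Bowtie and bcl2fastq 2.17.1.14 are named in the submitters' processing notes, which give no strand setting. All tests used the deposited raw counts, named so in the file headers. The authors' normalized signal per kb served for 1 order of levels only.

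Counts were scaled by TMM, filtered by group to 17201 genes and fitted as 4 group means, leaving 8 residual degrees of freedom. Each contrast was tested by quasi-likelihood in edgeR 4.0.16 (with limma 3.58.1, R 4.3.3), adjusted by Benjamini-Hochberg over all tested genes at 0.05. Standard errors and 95% intervals come from the same fit. Totals of 55668606 to 87753152 counts put 3 counts at 0.0342 to 0.0539 CPM, counting error only. DESeq2 1.42.0 was an alternative. The fit was tested on simulated data. Near-identical copies (98% identity, 50% coverage) were sought by BLAST 2.17.0.

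The members and lists were chosen with earlier results of these data known. All 33 members are named, and from each other list up to 4 called genes of at least 1 CPM with the largest WT denervation change, with exceptions stated. The motif search had been planned on 300 bases, and was run on the 250 before the start.

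Legs of the same number correlated in their deviations from group means over 12706 genes (r = 0.271 to 0.459 in WT, 0.197 to 0.508 in dKO, against −0.389 to 0.0884 for other numbers), so numbers were taken to pair the legs of an animal. The main tests did not use these pairs, which entered only through the replicate block and the counts by leg pair. For the denervation and difference contrasts the block was the replicate number within a genotype. For the genotype contrasts it was the number alone, which joins different animals and is not a pairing. The labels do not name the animals, and p-values measure the spread between these samples.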

Additional observations from a re-analysis of the deposited data

How the results depend on the processing

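Of the calls after denervation, 9 of 14 endothelial and 9 of 10 mural calls in WT, and 6 of 8 and 9 of 9 in dKO, held in every alternative. Those lost in at least 1 were Cdh5, Esam, Robo4, Erg, Sox18 and Mylk in WT and Flt4 and Cdh5 in dKO. Without single replicates the WT counts were 9 to 13 endothelial, with 9 without WT innervated replicate 2, and 9 to 11 mural, and the dKO counts 6 to 10 and 9 to 10. With the replicate block, 14 endothelial and 12 mural genes were called in WT, and 11 (10 lower, 1 higher) and 10 in dKO, and calls other than those given in the report did not change. With the block and the GC trend removed, chosen after seeing the data, 13 endothelial genes were called in dKO (12 lower, 1 higher). The median log2 ratio of the endothelial genes in dKO was −0.25 in that setting and in the main fit. The GC trend was fitted to each library's deviations from its group mean, so removing it could hardly move a ratio between groups. The genotype and difference contrasts called 0 members in every alternative. Over all genes, the innervated genotype contrast called 79, and 276 by DESeq2, 240 with no filter, 46 with only the groups compared, 50 without dKO innervated replicate 1 and WT denervated replicate 2, 189 with the block and GC trend removed and 27 to 52 without single replicates. The denervated one called 62, and 290, 252, 4, 160 and 11 to 42 in the same settings, the pair of libraries aside. The difference contrast called 0, and 2 with no filter. The causes were not tested. Of 2310 member values under alternatives, 152 differed in sign from the main value, none of them called. With 3 libraries per group, small changes may go uncalled.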
